A study of Mus musculus with 6 samples.

Results

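The contractile apparatus of visceral smooth muscle was described through 10 genes, Acta2, Actg2, Tagln, Cnn1, Myh11, Smtn, Des, Lmod1, Mylk and Tpm2. They were taken as a list for their function in the muscle cell. All 10 were among the 12393 genes measured, with 18 of the 22690 probe sets of the array. Where a gene had several probe sets the one brightest on average across the 6 arrays was read, and the others are given as well.

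RNA came from cells of C57BL/6 mouse embryos at embryonic day 13.5, which were dissociated enzymatically so that less endoderm remained, and grown for 3 days with serum. Barx1 intestine denotes intestine cells of embryos with the genotype Rosa26+/Barx1;Bapx1+/Cre, in which Cre from the Bapx1 locus, active in gut mesenchyme, switches on Barx1. The stomach and intestine cells came from embryos labelled wild type, with either Rosa26+/Barx1 or Bapx1+/Cre alone, and the labels do not say which allele each culture carried. Each of the 3 groups had 2 arrays, called biological replicates in the labels, which do not say how many embryos went into a culture. With 2 arrays a group, precision is limited throughout.

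BARX1, a homeodomain factor, is made by mesenchyme of the developing stomach, and by its title the study is about the control of stomach smooth muscle by this factor. Barx1 read 8.72 ± 0.10 in Barx1 intestine, 9.81 ± 0.02 in stomach and 5.03 ± 0.15 in intestine (log2 level, SD, n = 2 each), an order that follows the labels.

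Smooth muscle shortens when myosin filaments pull on actin filaments. Calcium and calmodulin activate myosin light chain kinase, which phosphorylates the regulatory light chain of myosin. Tropomyosin, calponin and transgelin lie along the actin filament, leiomodin starts new filaments, and desmin ties the apparatus into the cell as an intermediate filament. Most genes of this set are switched on by serum response factor, which binds a short element called the CArG box, together with the coactivator myocardin or its relatives. The gut differs from vessels in its heavy use of the gamma actin Actg2 beside the alpha actin Acta2.

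The CArG box is the regulatory letter string that this gene set is best known for, so promoter sequences are shown for a gene at the top of the array range (Acta2), a gene that was higher in stomach (Lmod1) and the gene that was lower in Barx1 intestine than in stomach (Des). Each is the stretch of 250 bases before the start site used in the RefSeq promoter table, build GRCm38.p6, written 5′ to 3′ on the strand of the gene. Capitals mark CArG boxes with up to 1 mismatch in their 10 letters. Acta2 lies at chr19:34255374-34255623 on the minus strand, Lmod1 at chr1:135324563-135324812 on the plus strand and Des at chr1:75360042-75360291 on the plus strand. For Lmod1 and Des the window ends where the annotated gene span begins, but for Acta2 212 of the 250 bases lie inside that span, so an annotated start farther upstream exists and positions depend on the start used.
Acta2: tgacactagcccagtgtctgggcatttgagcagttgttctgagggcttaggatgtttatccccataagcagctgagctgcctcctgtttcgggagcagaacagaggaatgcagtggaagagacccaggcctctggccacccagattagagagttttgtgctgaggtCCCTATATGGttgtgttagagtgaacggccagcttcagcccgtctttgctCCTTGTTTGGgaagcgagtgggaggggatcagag
Lmod1: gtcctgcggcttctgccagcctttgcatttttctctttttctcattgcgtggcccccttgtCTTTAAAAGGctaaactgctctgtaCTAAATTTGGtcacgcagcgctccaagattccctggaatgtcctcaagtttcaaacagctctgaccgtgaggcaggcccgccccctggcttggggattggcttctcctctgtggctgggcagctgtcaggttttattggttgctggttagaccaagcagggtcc
Des: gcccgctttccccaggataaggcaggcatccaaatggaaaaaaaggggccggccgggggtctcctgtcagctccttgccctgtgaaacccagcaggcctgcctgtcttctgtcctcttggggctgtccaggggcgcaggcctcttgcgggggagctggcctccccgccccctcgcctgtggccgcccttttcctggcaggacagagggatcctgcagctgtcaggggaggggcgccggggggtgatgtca

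The motif reads the same on both strands. RefSeq promoters were at hand for 7 of the 10 genes, namely Acta2, Cnn1, Smtn, Des, Lmod1, Mylk and Tpm2. An exact CArG box stood in 0 of the 7, and in 1.47% of the 32851 promoter windows in the table. With 1 mismatch allowed, Acta2 and Lmod1 had 2 matches each and the other 5 genes had none, against 18.6% of all windows with at least 1. Counted from the start in that table, the Acta2 matches lay at -84 to -75 and at -34 to -25, and those of Lmod1 at -189 to -180 and at -164 to -155. A match describes letters in this window, and CArG boxes outside it were not searched. All 250 bases of the Mylk window lay inside the annotated gene span, as did 32 bases for Cnn1 and 29 for Tpm2. For these genes too the absence of a match depends on the start used.

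The most abundant filament genes read nearly the same in all groups. Acta2, smooth muscle alpha actin, had log2 levels of 14.57 and 14.55 in Barx1 intestine, 14.61 and 14.61 in stomach, with 14.55 and 14.57 in intestine. Its whole spread over the 6 arrays was 0.07 log2 units. Tagln, the actin-binding protein transgelin or SM22, read 14.27 and 14.27 in Barx1 intestine, 14.21 and 14.23 in stomach, with 14.25 and 14.24 in intestine. Tpm2, beta tropomyosin, read 13.74 and 13.75 in Barx1 intestine, 13.82 and 13.85 in stomach, with 13.79 and 13.70 in intestine. Actg2, the gamma actin of visceral muscle, read 13.60 and 13.68 in Barx1 intestine, 13.72 and 13.78 in stomach, with 13.75 and 13.80 in intestine. For Actg2 both Barx1 intestine arrays lay below the other 4 arrays, by little, and the stomach and intestine arrays overlapped.

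None of these 4 genes passed the limma test (adjusted p under 0.05 over all genes) in any of the 3 comparisons. The 95% intervals of limma, taken gene by gene, bound the differences that these arrays allow. For Acta2, the interval of Barx1 intestine minus intestine ran from -0.13 to 0.13 log2 units, a ratio of 0.911 to 1.10. For Actg2 the difference was -0.14 (interval -0.29 to 0.02, adjusted p = 0.255), and for Tagln it was 0.02 (-0.11 to 0.16). For Tpm2 it was -0.0023 (-0.15 to 0.14). As ratios of Barx1 intestine to intestine, the Actg2 interval ran from 0.816 to 1.01 and the Tpm2 interval from 0.902 to 1.10.

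These 4 genes were also the brightest of the set, with means above 13 on a scale whose highest value on any array was 14.7. On each array, only 4 or 5 of the 22690 probe sets read higher than Acta2. The range of the 3 group means was 0.05 to 0.14 for these 4 genes and 0.22 to 1.16 for the other 6. The same held for the arrays at large, since the 185 genes above a mean of 13 had a median range of 0.09 and the 12208 others a median of 0.20. Whether the top of the scale compresses differences was not tested. The plot of spread against level shows each of the 10 genes among all genes.

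**Figure D1:**
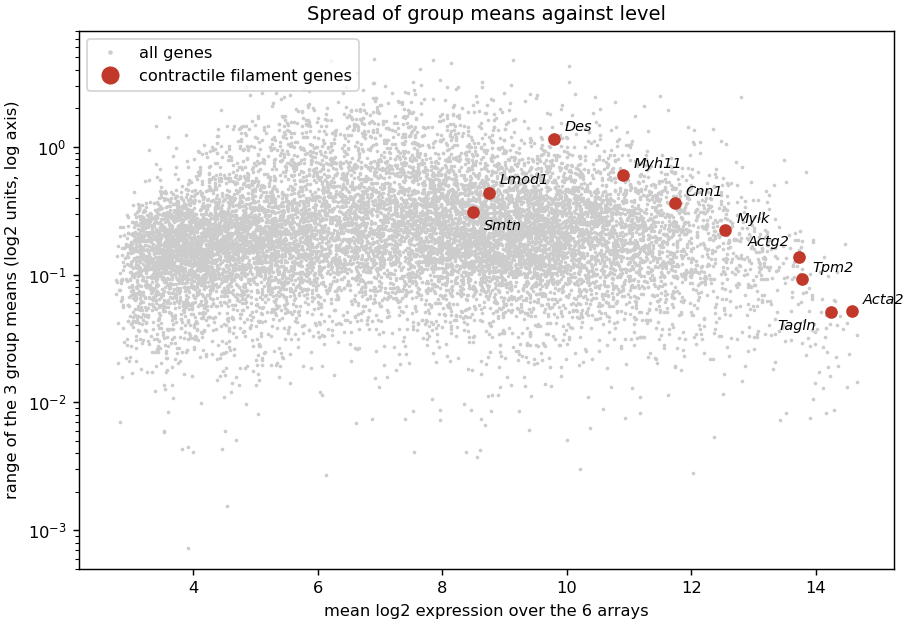
The horizontal axis gives the mean log2 expression over the 6 arrays and the vertical axis, on a log scale, the range of the 3 group means in log2 units; grey points are all 12393 genes and red points the 10 contractile filament genes. Acta2, Tagln, Tpm2 and Actg2 sit at the bright end with ranges of 0.05 to 0.14, and Des lies highest of the 10 with 1.16.

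Genes for 3 actin-associated proteins were higher in stomach than in intestine. Lmod1, the smooth muscle leiomodin that nucleates actin filaments, read 8.86 and 8.99 in stomach, against 8.45 and 8.52 in intestine. The stomach minus intestine difference was 0.44 (SE 0.08, limma adjusted p = 0.0212), a ratio of 1.35. Cnn1, calponin, which binds actin and restrains the myosin ATPase, read 11.90 and 12.04 in stomach, against 11.67 and 11.59 in intestine. Its difference was 0.34 (SE 0.08, limma adjusted p = 0.0354), a ratio of 1.27. Smtn, smoothelin, an actin-associated protein of contractile muscle cells, read 8.61 and 8.76 in stomach, against 8.35 and 8.40 in intestine. Its difference was 0.31 (SE 0.07, limma adjusted p = 0.0449), a ratio of 1.24. For each of these genes both stomach arrays exceeded both intestine arrays.

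So 3 of the 10 genes rose in stomach against intestine and 0 fell, where 8.86% of all genes rose and 8.09% fell. Only 10 genes were listed, and no test was made of the list. The arrays of 6 members lay wholly higher in stomach and those of 1 member, Tagln, wholly lower, against 34.5% and 29.6% of all genes. The median difference over the 10 genes was 0.12, beside 0.02 over all genes. At an unadjusted p under 0.05 the count was 4, but the share of all genes at that limit was not counted. The fourth was Des, with a difference of 0.41 (SE 0.14, adjusted p = 0.106). Dropping intestine replicate 1 gave 0.20 (adjusted p = 0.205), whereas dropping replicate 2 gave 0.61 (adjusted p = 0.0223), and Des was then the only member called. All 3 calls were small and rested on the full set of arrays. Those of Cnn1 (adjusted p from 0.0546 to 0.184) and Smtn (0.0683 to 0.211) were lost in each of the 6 fits that left out 1 array, Barx1 intestine arrays included, while the sign stayed positive. The call of Lmod1 was lost without either stomach array or either intestine array (adjusted p from 0.0537 to 0.129). With the replicate number as a block, which was not shown to pair the arrays, Cnn1 had an adjusted p of 0.0610 and the number of members called was 2.

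**Figure D2:**
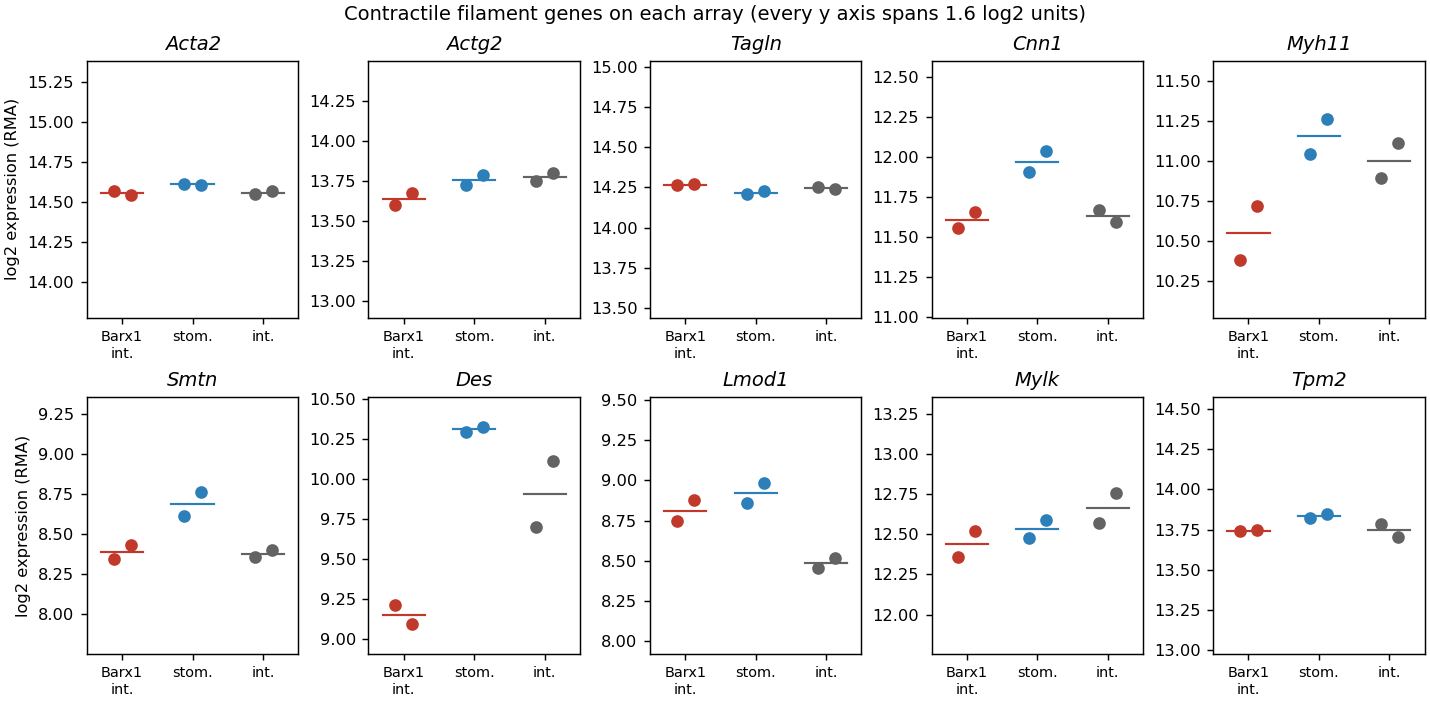
Each panel gives 1 gene, with the log2 expression value of each array as a point and the group mean as a line, for Barx1 intestine, stomach and intestine from left to right; each vertical axis spans 1.6 log2 units but starts at its own level. Cnn1 and Smtn are high in stomach alone, Lmod1 is high in Barx1 intestine and stomach, and Des is low in Barx1 intestine, at 9.21 and 9.10.

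Of these 3 genes, Barx1 intestine read near intestine for Cnn1 and Smtn and near stomach for Lmod1. For Cnn1 its arrays read 11.56 and 11.66, overlapping those of intestine, and for Smtn 8.35 and 8.43, also overlapping. The differences of Barx1 intestine from intestine were -0.02 for Cnn1 (95% interval -0.21 to 0.17) and 0.01 for Smtn (-0.18 to 0.20). Against stomach, Cnn1 differed by -0.36 (SE 0.08, limma adjusted p = 0.0580) and Smtn by -0.30 (SE 0.07, limma adjusted p = 0.0823), and neither passed. Lmod1 read 8.74 and 8.88 in Barx1 intestine, above both intestine arrays. Its difference from intestine was 0.33 (SE 0.08, 95% interval 0.13 to 0.52, limma adjusted p = 0.0841), and its difference from stomach was -0.11 (-0.31 to 0.09, limma adjusted p = 0.453), with overlapping arrays.

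Des, the intermediate filament gene, had the widest range of the 10. It read 9.21 and 9.10 in Barx1 intestine, 10.29 and 10.32 in stomach, with 9.70 and 10.11 in intestine. The groups did not overlap, and Barx1 intestine was lowest. Barx1 intestine minus stomach was -1.16 (SE 0.14, 95% interval -1.50 to -0.81, limma adjusted p = 0.0187), a ratio of 0.449. That call was lost without either Barx1 intestine array or either stomach array (adjusted p from 0.0883 to 0.145), with differences of -1.21 to -1.10. Barx1 intestine minus intestine was -0.75 (SE 0.14, 95% interval -1.10 to -0.40) with a limma adjusted p of 0.0505. The intestine arrays differed by 0.41, the largest gap between replicates among the 10 genes in any group. Without intestine replicate 1 the difference was -0.96 (adjusted p = 0.0146). Dropping replicate 2 instead gave -0.54 (adjusted p = 0.0670). The mean of both Des probe sets gave -0.35 against intestine (adjusted p = 0.121) and -0.69 against stomach (adjusted p = 0.0296).

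Myh11, the heavy chain of smooth muscle myosin and so the motor of the thick filament, followed the same order as Des. It read 10.39 and 10.72 in Barx1 intestine, 11.05 and 11.26 in stomach, with 10.89 and 11.11 in intestine. Both Barx1 intestine arrays lay below all other arrays, and the stomach and intestine arrays overlapped. The difference was -0.60 from stomach (SE 0.15, limma adjusted p = 0.0781) and -0.45 from intestine (SE 0.15, limma adjusted p = 0.145). Without Barx1 intestine replicate 1 the difference from intestine was -0.28, and without replicate 2 it was -0.62. With the replicate block the difference from stomach had an adjusted p of 0.0307, and with a trend of the variance on level 0.0373. Mylk, the myosin light chain kinase, read 12.36 and 12.52 in Barx1 intestine, 12.47 and 12.59 in stomach, with 12.57 and 12.75 in intestine. Its arrays overlapped between Barx1 intestine and stomach and between stomach and intestine, and no difference passed (adjusted p from 0.241 to 0.607).

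In the comparison of Barx1 intestine with intestine, 0 of the 10 genes rose and 0 fell by limma, where 1.86% of all genes rose and 2.12% fell. At an unadjusted p under 0.05 there were 3, namely Des and Myh11 lower and Lmod1 higher. Here too the share of all genes at that limit was not counted. A variance trend in limma, a filter on dim genes and a second quantile normalisation each gave 1 gene lower, Des. The arrays of 2 members lay wholly higher and those of 4 wholly lower in Barx1 intestine, against 30.1% and 22.4% of all genes. The median difference was -0.01, beside 0.02 over all genes.

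In the comparison of Barx1 intestine with stomach, 0 rose and 1 fell, Des, where 2.56% of all genes rose and 2.64% fell. The arrays of 7 members lay wholly lower in Barx1 intestine, and those of 1 member, Tagln, wholly higher, against 28.5% and 29.5% of all genes. The median difference was -0.11, beside -0.00077 over all genes. These comparisons share arrays, so each member's differences are given side by side and not as separate evidence.

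**Figure D3:**
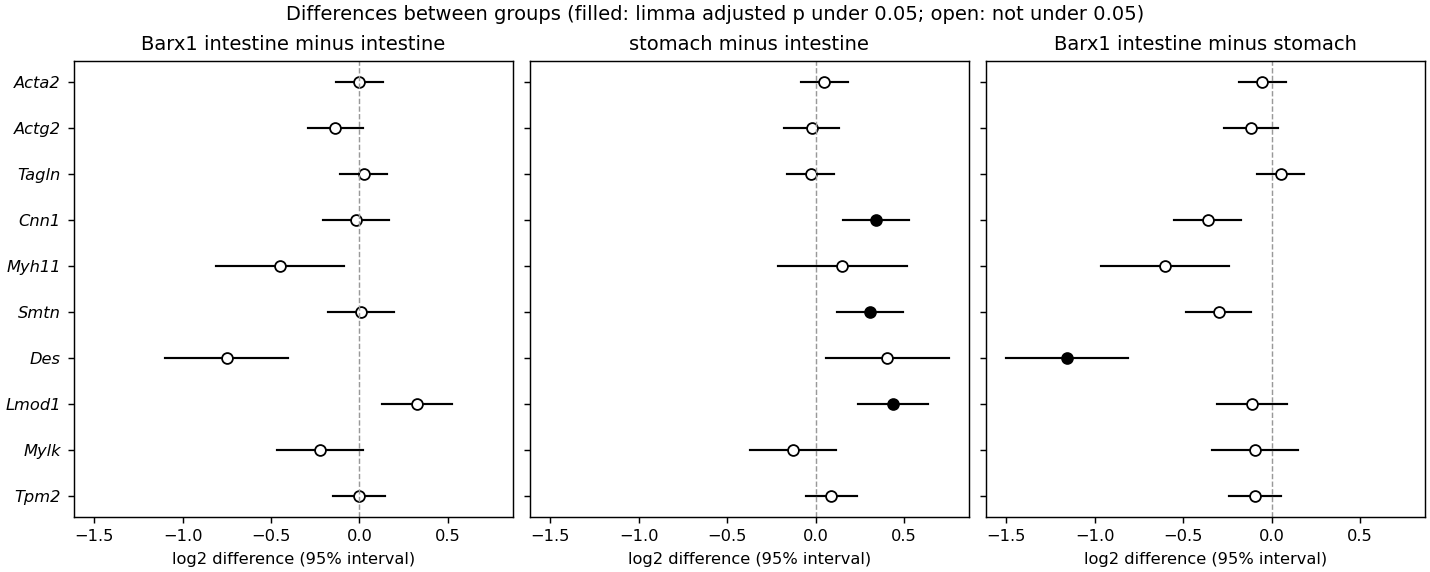
Points give the log2 difference of each gene and lines its 95% limma interval, in panels for Barx1 intestine minus intestine, stomach minus intestine and Barx1 intestine minus stomach; filled points had a limma adjusted p under 0.05. Filled points are Cnn1, Smtn and Lmod1 in the middle panel (0.31 to 0.44) and Des in the right panel (-1.16).

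A single probe set represented 5 of the genes, and for Acta2, Myh11, Des, Mylk and Tpm2 other probe sets could be set beside it. The 2 probe sets of Myh11 moved alike. The dimmer one, 1418122_at, read 7.41 and 7.51 in Barx1 intestine, 7.89 and 8.05 in stomach, with 7.79 and 7.89 in intestine. In a fit of all probe sets naming 1 gene, it was lower in Barx1 intestine than in stomach by a difference of -0.51 (SE 0.08, limma adjusted p = 0.0361), while the brighter set, 1448962_at, missed the threshold there (-0.60, SE 0.14, adjusted p = 0.0804). The second Des probe set, 1426732_at, read between 4.51 and 4.86 on all arrays, close to the lower quartile of the arrays (4.72 to 4.76), so a signal above background was not shown. Its Barx1 intestine minus stomach difference was -0.22 (limma adjusted p = 0.178), and its Barx1 intestine minus intestine difference was 0.05, so the fall of Des rested on 1426731_at.

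Acta2 and Tpm2 had dimmer probe sets that ran the other way. For Acta2, 1456658_at read 6.55 and 6.54 in Barx1 intestine, 6.17 and 6.33 in stomach, with 6.36 and 6.33 in intestine. Both Barx1 intestine arrays were the highest, though all 6 values lay below the array medians (6.93 to 6.98), and the Barx1 intestine minus stomach difference of 0.30 did not pass (SE 0.07, limma adjusted p = 0.0829). For Tpm2, 1419739_at read 6.42 and 6.41 in Barx1 intestine and 6.26 and 6.14 in stomach (difference 0.22, limma adjusted p = 0.138), while the bright 1425028_a_at read 13.33 and 13.34 in Barx1 intestine and 13.39 and 13.43 in stomach. The Tpm2 set 1449577_x_at, above the array medians, read 9.51 and 9.47 in Barx1 intestine, 9.36 and 9.44 in stomach, with 9.31 and 9.32 in intestine. Its Barx1 intestine arrays were the highest, by 0.09 over stomach (95% interval -0.07 to 0.25) and 0.18 over intestine (0.02 to 0.33, limma adjusted p = 0.182). With the mean of all probe sets in place of the brightest, the Barx1 intestine minus stomach difference became 0.12 for Acta2 and 0.04 for Tpm2, and neither passed. The 3 probe sets of Mylk gave Barx1 intestine minus intestine differences of -0.22, -0.10 and -0.08. By the array maker's naming, the suffix of the bright Acta2 set, 1416454_s_at, marks probes that can match transcripts of several genes, and the suffix of 1449577_x_at of Tpm2 marks probes that may hybridise elsewhere. Actin paralogs are close in sequence, so the Acta2 reading may include other actins.

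**Figure D4:**
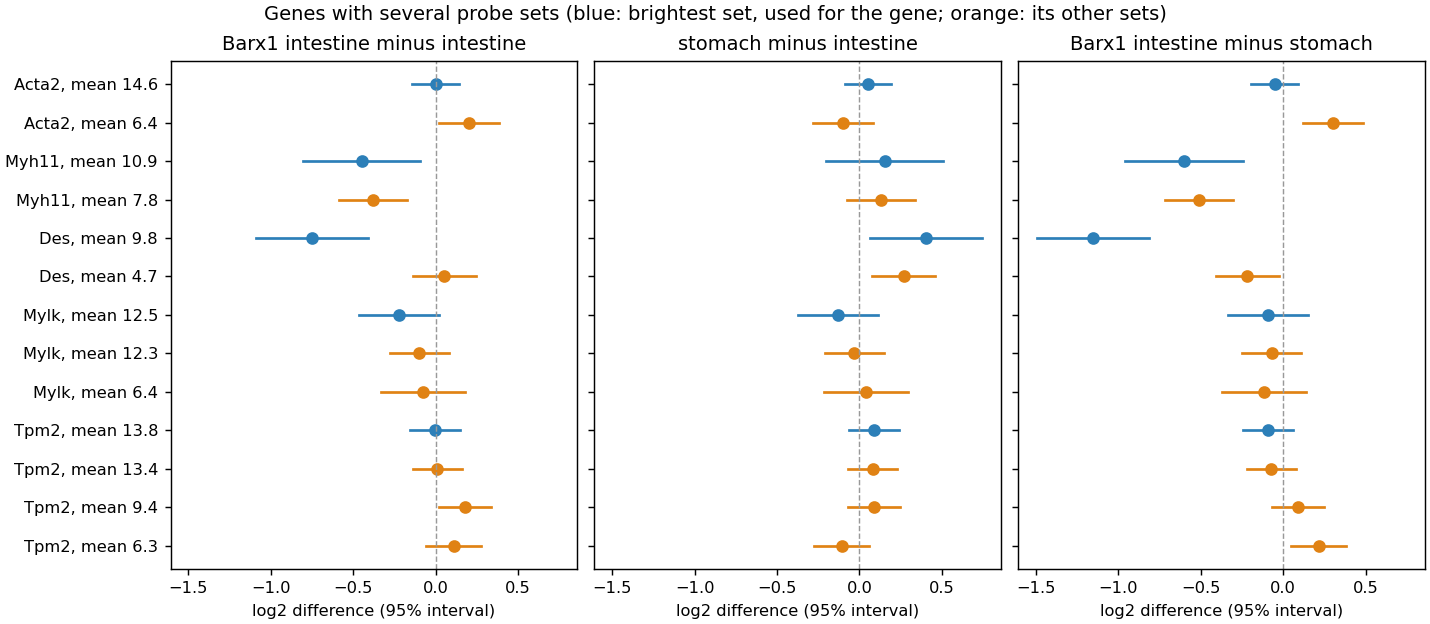
Each row is a probe set of a gene with several, labelled with its mean log2 level; points give the log2 difference and lines its 95% limma interval, in blue for the brightest set of a gene and in orange for its other sets. Both Myh11 sets lie left of 0 against stomach (-0.60 and -0.51), while the 2 Des sets differ in size (-1.16 and -0.22).

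Over the 6 arrays, Cnn1 and Smtn varied together (Pearson r = 0.97), as did Cnn1 and Tpm2 (0.93), and Myh11 followed Actg2 (0.94) and Des (0.89). Tagln ran against Des (-0.93) within its total range of 0.06. These 6 points include the group differences, so the values describe the arrays and carry no test. The mean profile of the 10 genes, each centred on its own mean, stood at -0.17 and -0.10 in Barx1 intestine, 0.10 and 0.19 in stomach, and -0.05 and 0.03 in intestine. The genes were not scaled, so those with wide ranges, Des (1.23) and Myh11 (0.88), weigh most. With the mean of the other members, Tagln had r = -0.86, Lmod1 0.23 and Mylk 0.38, and the rest 0.67 to 0.89. Among 6186 other genes above the median level, the profiles most like the mean profile were those of Pdzrn3 (r = 0.99), Snx4 (0.99), Col16a1 (0.99), Ncoa1 (0.98) and Rev3l (0.98). Pdzrn3 read 9.90 in Barx1 intestine, 10.69 in stomach and 10.27 in intestine as group means.

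Further genes of the contractile machinery were read from a list of 20, of which 17 were measured. The counts of this list and of those below stand beside the shares of all genes called. In Barx1 intestine against intestine 1.86% rose and 2.12% fell. For stomach against intestine 8.86% rose and 8.09% fell, and for Barx1 intestine against stomach 2.56% rose and 2.64% fell. Of the 17 genes, 0 rose and 3 fell in Barx1 intestine against intestine. Those were Kcnmb1, the beta subunit of the calcium-activated potassium channel that relaxes smooth muscle (-0.78, limma adjusted p = 0.0167), Ppp1r14a, an inhibitor of myosin phosphatase (-0.76, limma adjusted p = 0.0495), and Csrp1, a LIM protein of actin bundles (-0.46, limma adjusted p = 0.0265). In stomach against intestine 1 rose, Pdlim3, a PDZ and LIM protein that binds alpha-actinin (0.81, limma adjusted p = 0.0413), and 3 fell, Ppp1r14a (-1.13), Synpo2, an actin-binding protein (-0.89), and Kcnmb1 (-0.66). In Barx1 intestine against stomach Synpo2 rose (0.60, limma adjusted p = 0.0271) and Pdlim3 fell (-1.43, limma adjusted p = 0.0230). Pdlim3 read 6.95 and 6.80 in Barx1 intestine, 8.16 and 8.45 in stomach, with 7.24 and 7.76 in intestine, the same order of groups as Des and Myh11. Bright genes of the list stayed close, as with Cald1, caldesmon (14.00 and 13.90 in Barx1 intestine, 13.99 and 13.94 in stomach, 13.90 and 13.89 in intestine).

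Of 8 factors that regulate smooth muscle genes, 0 passed in Barx1 intestine against intestine by limma. At an unadjusted p under 0.05 there were 2, a limit at which the share of all genes was not counted. Myocd, the coactivator myocardin, read 6.34 and 6.41 in Barx1 intestine, 7.33 and 7.19 in stomach, with 6.36 and 6.37 in intestine. It was lower in Barx1 intestine than in stomach by a difference of -0.89 (SE 0.07, limma adjusted p = 0.0114) and its Barx1 intestine minus intestine difference was 0.01. Gata6, a zinc-finger factor of gut and smooth muscle, was lower in Barx1 intestine than in stomach (-1.33, limma adjusted p = 0.0120) and higher in stomach than in intestine (0.86, limma adjusted p = 0.00965). Srf itself read 10.42 and 10.32 in Barx1 intestine, 10.41 and 10.36 in stomach, with 10.21 and 10.31 in intestine, and Mrtfa, an actin-sensing relative of myocardin, was lower in stomach than in intestine (-0.35, limma adjusted p = 0.0280).

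A further list held relatives of the filament genes, mostly of non-muscle cells but with the muscle genes Lmod2 and Smtnl1 among them. It gave 0 calls among 14 measured in each of the 3 comparisons by limma. Each comparison had 1 at an unadjusted p under 0.05, again without a counted share of all genes. The cytoplasmic actins stayed level, with Actb at 14.44 and 14.51 in Barx1 intestine, 14.53 and 14.51 in stomach, with 14.52 and 14.48 in intestine. Among 22 striated muscle genes, Tnnt2, cardiac troponin T, was higher in Barx1 intestine than in intestine (0.75, limma adjusted p = 0.0446) and higher in stomach than in intestine (0.92, limma adjusted p = 0.0117). Actc1, the cardiac actin, was higher in stomach than in intestine (0.71) and lower in Barx1 intestine than in stomach (-0.64), while Acta1, the skeletal actin, was lower in stomach than in intestine (-2.42, limma adjusted p = 0.0432). On every array 11 of the 22 lay at or below the lower quartile. Myod1 and Myog, the factors that define skeletal muscle, read 4.45 to 5.49 and did not pass in any comparison.

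Some markers of other cell types differed between the same groups. The summed linear level of 15 leukocyte markers was 3567 and 7146 in Barx1 intestine, 7842 and 6219 in stomach, with 10393 and 19410 in intestine. In Barx1 intestine against intestine 5 of the 15 were lower, where 2.12% of all genes fell. C1qa was among the 5 (-2.53). The 15 differences ran from -2.62 to 0.51, with Lyz2 (-0.20) and Cd14 (0.51) at the upper end. In stomach against intestine and in Barx1 intestine against stomach 0 of the 15 passed. The sum over 17 endoderm epithelium markers was 11807 and 7514 in Barx1 intestine, 4855 and 8124 in stomach, with 24964 and 11425 in intestine. The Barx1 intestine and intestine sums overlapped, and the bright Krt8 and Krt18 weighed most in them. Spint1 was lower in Barx1 intestine than in intestine (-1.64), and 3 genes were lower in stomach than in intestine. Foxa2 read higher than in intestine in Barx1 intestine (0.22) and in stomach (0.50), without passing. The sum over 9 enteric neural crest markers was 591 and 665 in Barx1 intestine, 1066 and 1042 in stomach, with 1560 and 1959 in intestine. The same 3 genes, Sox10, Ednrb and Erbb3, were lower than in intestine in both other groups. Not all 9 moved this way, since Tubb3 (0.69) and Elavl4 (0.36) read higher in stomach than in intestine without passing. In Barx1 intestine against stomach Tubb3 (-1.91, limma adjusted p = 0.0326) and Erbb3 (-0.86, limma adjusted p = 0.0442) were lower.

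The sum over 10 endothelial markers was 791 and 897 in Barx1 intestine, 657 and 651 in stomach, with 1087 and 1121 in intestine. In stomach 4 were lower than in intestine, Kdr (-1.59, limma adjusted p = 0.00514), Esam (-0.84), Pecam1 (-0.59) and Eng (-0.48). In Barx1 intestine Esam (-0.92) and Pecam1 (-0.61) were lower than in intestine, and Kdr (1.28) and Emcn (0.56) were higher than in stomach. Pecam1 read 3.43 to 4.14 on the 6 arrays, below their lower quartile (4.72 to 4.76), and Emcn read 4.25 to 4.96, close to it. On each array 4 to 6 of the 10 exceeded that quartile. The interstitial cell list had 4 genes measured, with a summed level of 1184 and 1458 in Barx1 intestine, 1427 and 1496 in stomach, with 974 and 836 in intestine. Pdgfra, a receptor that other mesenchyme also carries, was higher in stomach than in intestine (1.63, limma adjusted p = 0.00426) and lower in Barx1 intestine than in stomach (-1.07). Kit, the receptor that defines interstitial cells of Cajal, was likewise higher in stomach than in intestine (0.62) and lower in Barx1 intestine than in stomach (-0.38), but its mean level was at most 4.44, below the lower quartile of the arrays. Cd34 was lower in stomach than in intestine (-0.84) and higher in Barx1 intestine than in stomach (1.62). The 4 mesothelial genes summed to 794 and 543 in Barx1 intestine, 420 and 610 in stomach, with 1425 and 683 in intestine. Krt19, also on the endoderm epithelium list, was the brightest of the 4 on every array and weighed most in this sum. Wt1 was higher (1.33) and Msln lower (-1.13) in stomach than in intestine. In the limma comparisons of Barx1 intestine with either group 0 passed. At an unadjusted p under 0.05 there were 1 (against intestine) and 2 (against stomach), with no share of all genes counted. For the 10 contractile filament genes the sum was 81080 and 82724 in Barx1 intestine, 85755 and 88070 in stomach, with 84174 and 85266 in intestine. This linear sum is set mostly by Acta2, Tagln, Tpm2 and Actg2, and it says little about dimmer members such as Des, Myh11, Lmod1 and Smtn. All 10 exceeded the lower quartile of probe sets on every array. Most probe sets do so by definition, and each gene was read from its brightest set. The part of other cells in the differences above was not tested. In these bulk cultures, fewer muscle cells and less RNA per muscle cell cannot be told apart.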

How the data were processed

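RNA of 6 cultures was hybridised to Affymetrix 3′ arrays. The authors deposited log2 expression values of 22690 probe sets, which are RMA summaries per the submitters' processing notes. The RMA version is not given in the sources used here. This method brings the arrays to a common distribution, so a shift shared by most genes would be removed. The log2 scale was inferred from the range of the deposited values, 2.48 to 14.7. Arrays have no depth, and their number sets the precision.

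Names came from the platform annotation, in which 20380 probe sets named 1 gene, 691 several and 1555 none, with 64 controls. Of the first, 20351 matched the reference gene table and 0 symbols changed. All 6 arrays entered 1 fit of 3 group means (limma 3.58.1 in R 4.3.3, lmFit and eBayes), with 3 residual and 2.58 prior degrees of freedom, adjusted by Benjamini-Hochberg over 12393 genes. Every adjusted p comes from limma. The counts at an unadjusted limma p under 0.05 have no share of all genes beside them for any list. Each p-value sets a group difference against the spread between arrays of a group. That spread was pooled over the 3 groups and moderated by limma over all genes. The fit was run on simulated data with independent normal errors drawn from its own variance model. That checks the code and not whether its assumptions hold for these arrays. Members, lists and tests were chosen with earlier results of these data known. The rule named the 10 members, Barx1, the called genes of the other lists or else their brightest genes, and the 5 most alike profiles. Where a list had many calls examples are given, and C1qa, Spint1, Myod1, Myog and Srf were picked after their values were seen. So were Lyz2, Cd14, Foxa2, Elavl4, Krt8, Krt18 and Krt19. Deviations of equal replicate numbers correlated at -0.06, 0.20 and -0.22 between groups, so the numbers were not taken to pair the arrays.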

Additional observations from a re-analysis of the deposited data

How the results depend on the processing

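The member differences kept their sign and side of the threshold in most settings, except the stomach against intestine calls of Cnn1 and Smtn. Of 10 other settings that left out no single array, Cnn1 kept its call in 7 and Smtn in 8. Their fits without 1 array are described above. The further exceptions follow, and the cause of each was not tested. In Barx1 intestine against intestine, 0 members were called, and 1 was called lower (Des) with the filter on dim genes, with a second quantile normalisation, with a variance trend and at an adjusted p under 0.1, where 1 (Lmod1) was also higher. Leaving out 1 array gave 0 to 1 lower (Des without intestine replicate 1), and 50 to 466 genes in all against 493. All genes called numbered 1037 with the trend, 50 in a fit of the 2 groups, 267 with the replicate block, 1316 at 0.1 and 40 at 0.01. In stomach against intestine, 3 members were higher, and 1 in a fit of the 2 groups (Lmod1), 1 with the crossed replicate block, 0 at 0.01 and 0 to 1 without 1 array (Lmod1 without either Barx1 intestine array, Des without intestine replicate 2); without 1 array 281 to 1692 genes were called of 2100, and 3310 at 0.1 and 512 at 0.01. In Barx1 intestine against stomach, 1 member was lower, and 2 with the filter (with Cnn1), 3 with the trend (with Cnn1 and Myh11), 2 with the replicate block (with Myh11), 4 at 0.1 and 0 at 0.01, with 0 to 1 without 1 array. All genes called were 644 there, and 1189 with the trend, 337 with the replicate block, 383 with the crossed block, 1516 at 0.1, 11 at 0.01 and 0 to 727 without 1 array.

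Signs turned only for members without a call. In Barx1 intestine minus intestine, subtracted array medians gave 0.030 for Acta2, 0.010 for Cnn1 and 0.029 for Tpm2, the mean of all probe sets 0.10 for Acta2 and 0.073 for Tpm2, and a second quantile normalisation 0.015 for Tpm2. Leaving out 1 array gave -0.013 to 0.011 for Acta2, -0.070 to 0.028 for Cnn1, -0.032 to 0.051 for Smtn and -0.043 to 0.038 for Tpm2. In stomach minus intestine, Acta2 was -0.025 with the mean of all probe sets and Actg2 -0.052 to 0.0096 without 1 array. In Barx1 intestine minus stomach, the mean of all probe sets gave 0.12 for Acta2 and 0.035 for Tpm2. The replicate block changed no member's call apart from those of Cnn1 and Myh11 given in the text. Equal replicate numbers of stomach and intestine correlated below 0, so a block with the stomach numbers exchanged was added after seeing the data. Having 2 arrays a group limits what small differences can be shown. Whether levels near the top of the scale compress differences was not tested.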
